A study of Mus musculus with 8 samples.

Results

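The genes described here are the protein-coding mouse genes whose symbol is Zfp followed by a number from 700 to 999. Ensembl identifiers without their version were matched to GENCODE M21, and 128 of the 55401 genes in the deposited count table met the rule, on 17 chromosomes. Their RNA was measured in mouse prospermatogonia, germ cells of the testis before birth, at E17.5 (embryonic day). The genotype was Tet1-/- in 4 libraries (KO 1 to KO 4) and Tet1+/+ in the other 4 (WT 1 to WT 4), all labelled as batch 1. Libraries were prepared from 5 ng of total RNA after removal of ribosomal RNA, with a kit that adds molecular identifiers. Neither the Tet1 allele, nor the method of purifying the cells, nor whether each library is a separate animal is given in the sources used here. The p-values of the fit therefore weigh each difference against the spread between these libraries, which may not be the spread between animals. By its title the series concerns what TET1 does in these cells apart from its enzyme activity, and the comparison of the genotypes asks how these transcripts differ without it.

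Most of these genes encode proteins with arrays of C2H2 zinc fingers, small folds that each contact a few bases of DNA. Many also carry a KRAB domain, which binds the co-repressor TRIM28. TRIM28 in turn brings the histone methyltransferase SETDB1 and HP1 proteins, and KRAB zinc finger proteins are best known for silencing retrotransposons and for protecting imprints in embryos and germ cells. The family has grown by tandem duplication, so many of its genes stand in clusters of close copies.

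The copies can be seen in the promoters. RefSeq (GRCm38.p6) gave a window from 250 bases before to 50 bases after the start for 109 of the 128 genes. The 4 windows below are shown because they belong to a cluster on chromosome 4 whose differences were mostly negative, to the 1 gene of that cluster that passed as higher, and to the rising gene with the largest log2 difference among those in clusters. Capitals mark the dinucleotide CG, the target of the DNA methylation that TET1 oxidises. Each is given 5′ to 3′ on the strand of the gene.
Zfp979, chr4:147642459-147642758, minus strand: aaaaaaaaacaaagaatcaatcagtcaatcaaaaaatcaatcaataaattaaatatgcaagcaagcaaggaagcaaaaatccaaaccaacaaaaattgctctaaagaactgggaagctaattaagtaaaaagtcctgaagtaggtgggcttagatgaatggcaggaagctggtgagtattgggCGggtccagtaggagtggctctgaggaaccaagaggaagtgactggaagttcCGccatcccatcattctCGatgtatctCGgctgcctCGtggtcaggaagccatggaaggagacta
Zfp980, chr4:145670447-145670746, plus strand: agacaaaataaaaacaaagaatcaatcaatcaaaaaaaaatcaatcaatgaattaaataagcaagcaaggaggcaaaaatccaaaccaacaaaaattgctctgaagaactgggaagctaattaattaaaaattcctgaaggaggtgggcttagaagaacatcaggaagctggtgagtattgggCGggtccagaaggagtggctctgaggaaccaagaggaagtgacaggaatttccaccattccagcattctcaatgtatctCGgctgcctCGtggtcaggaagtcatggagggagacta
Zfp933, chr4:147848369-147848668, minus strand: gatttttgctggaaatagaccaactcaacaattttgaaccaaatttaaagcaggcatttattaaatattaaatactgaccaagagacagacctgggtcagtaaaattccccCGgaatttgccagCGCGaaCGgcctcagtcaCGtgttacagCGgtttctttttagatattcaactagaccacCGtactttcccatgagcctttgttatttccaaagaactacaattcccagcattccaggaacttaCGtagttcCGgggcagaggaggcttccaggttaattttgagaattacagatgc
Zfp712, chr13:67061121-67061420, minus strand: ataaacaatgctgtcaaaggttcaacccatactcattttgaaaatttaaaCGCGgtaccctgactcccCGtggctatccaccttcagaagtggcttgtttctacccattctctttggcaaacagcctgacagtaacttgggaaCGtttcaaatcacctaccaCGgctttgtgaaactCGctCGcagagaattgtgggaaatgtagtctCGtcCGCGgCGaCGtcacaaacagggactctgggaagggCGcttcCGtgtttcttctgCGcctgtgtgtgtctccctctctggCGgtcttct
The windows of Zfp979 and Zfp980 were 91.3% identical in a global alignment, although the genes lie on opposite strands and in different parts of the cluster. Zfp933, at the end of the same cluster, was 57.3% identical to Zfp979 and 57.7% to Zfp980. The CG dinucleotide was present 5 times in the window of Zfp979, 3 times in that of Zfp980, 9 times in that of Zfp933 and 16 times in that of Zfp712.

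Before the results, 2 features of the libraries stand out. The Tet1 count went against the labels, at 129, 145, 75.8 and 147 CPM (counts scaled to library size by TMM, the trimmed mean of M values) in KO 1 to KO 4, against 30.3, 30.2, 32.8 and 34.2 CPM in WT 1 to WT 4. A count per gene does not show whether a deleted exon was read, and each direction below refers to the labels as deposited. KO 4 also stood apart: summed Leydig cell markers (6 genes) were at 1757 CPM in KO 4, against 13.7 to 19.9 CPM in the other libraries labelled KO and 14.6 to 31.3 CPM in those labelled WT. Its summed Sertoli cell markers (9 genes, of which Fshr stayed under 1 CPM everywhere) were at 99.02 CPM, against 27.9 to 29.9 and 19.9 to 32.1 CPM. Stromal, endothelial, immune and erythroid markers reached at most 144, 69.8, 10.3 and 21.4 CPM in the libraries labelled KO, and 135, 68.8, 11.7 and 23.0 CPM in those labelled WT. All 10 germ cell markers were detected, with sums of 2279 to 2821 CPM in the libraries labelled KO and 2249 to 2596 CPM in those labelled WT. The sums overlapped, but the mean log2(CPM + 1) of the 10 was 6.98 in libraries labelled KO and 6.20 in those labelled WT, with 5 markers higher and 2 lower. That difference of 0.78 had a two-sided exact permutation p of 0.0286, the smallest that 4 against 4 allows, and 0.133 after adjustment over 7 marker lists. The part of these cell types in the results was not tested; counts without KO 4 are given beside the main ones. Total counts ran from 13820764 to 20115250 per library.

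Summed, transcripts of the 128 genes were more abundant in the libraries labelled KO. The sum was 2293, 2398, 2277 and 2351 CPM in KO 1 to KO 4, and 1777, 1879, 1797 and 1888 CPM in WT 1 to WT 4. Means were 2330 ± 55.3 CPM in libraries labelled KO and 1835 ± 56.1 CPM in those labelled WT (SD, n = 4 each), and the groups did not overlap. These sums depend on the TMM factors, which were 0.885 to 0.984 in libraries labelled KO and 1.03 to 1.11 in those labelled WT. Such factors raise CPM in libraries labelled KO and lower it in those labelled WT, relative to total counts. Sums under other scalings are not given. In RNA from many cells, more cells of a kind and more RNA per cell cannot be told apart.

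Of the 128 genes, 117 passed the low-count filter. Relative to libraries labelled WT, 52 (44.4%) of these were higher in those labelled KO, 11 (9.40%) were lower and 54 did not pass, by edgeR's quasi-likelihood test at a Benjamini-Hochberg adjusted p under 0.05 over all 24005 genes tested. Over all 24005 genes, 53.5% passed, 25.3% as higher and 28.2% as lower, and of the 16568 tested protein-coding genes 60.8% passed, 31% as higher and 29.8% as lower. The median log2 difference, libraries labelled KO minus those labelled WT, was 0.29 for the 117 genes, -0.05 for all genes and 0.00 for protein-coding genes. Without KO 4, 50 were higher, 49 of them among the 52, and 4 were lower, all among the 11. The number lower was also 4 without KO 1, without a low-count filter and with DESeq2, 7 without KO 2, 6 without WT 3, 7 without WT 4 and 20 with upper-quartile scaling. Zfp831, Zfp938, Zfp978 and Zfp980 were lower in each of the 8 fits that left out 1 library and with DESeq2. Without a low-count filter Zfp938 lost its call, and the 4 lower were Zfp831, Zfp978, Zfp979 and Zfp980. The other 7 falls each lost their call without KO 1, without KO 4 and with DESeq2.

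The remaining 11 genes had too few counts to test. Zfp935, Zfp965, Zfp966, Zfp968 and Zfp969 had 0 counts in all 8 libraries, and each shared at least 90.1% of its 48-base sequences with transcripts of other genes. Zfp967 and Zfp973 had at most 4 counts in a group, and shared 89.5% or more. Zfp708, a KRAB gene, had 7 counts in the libraries labelled KO and 9 in those labelled WT, and 96.4% of its exon length overlapped other genes. The same share was 94.8% for Zfp784. Reads of such genes may be lost or given to a copy or neighbour, so that a count of 0 does not show an absent transcript. Zfp735 and Zfp957, with no such sharing or overlap, had at most 52 counts in a group.

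Zfp genes with lower numbers were called in like shares. Of 232 tested protein-coding Zfp genes numbered below 700, 104 (44.8%) were higher and 23 (9.91%) lower, and the median was 0.34. In these libraries the direction also went with abundance. At mean log2 CPM of at least 4, 46.4% of protein-coding genes were higher and 18% lower; of the 50 genes described here at that level, 28 were higher and 5 lower. Between 2 and 4, 22 of 50 were higher and 5 lower, against 25.8% and 36.6% of protein-coding genes. Under 2, 2 of 17 were higher and 1 lower, against 6.21% and 45.9%. In each band the median for these genes was above that of protein-coding genes, at 0.38 against 0.26, 0.38 against -0.12 and -0.10 against -0.89.

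**Figure D1:**
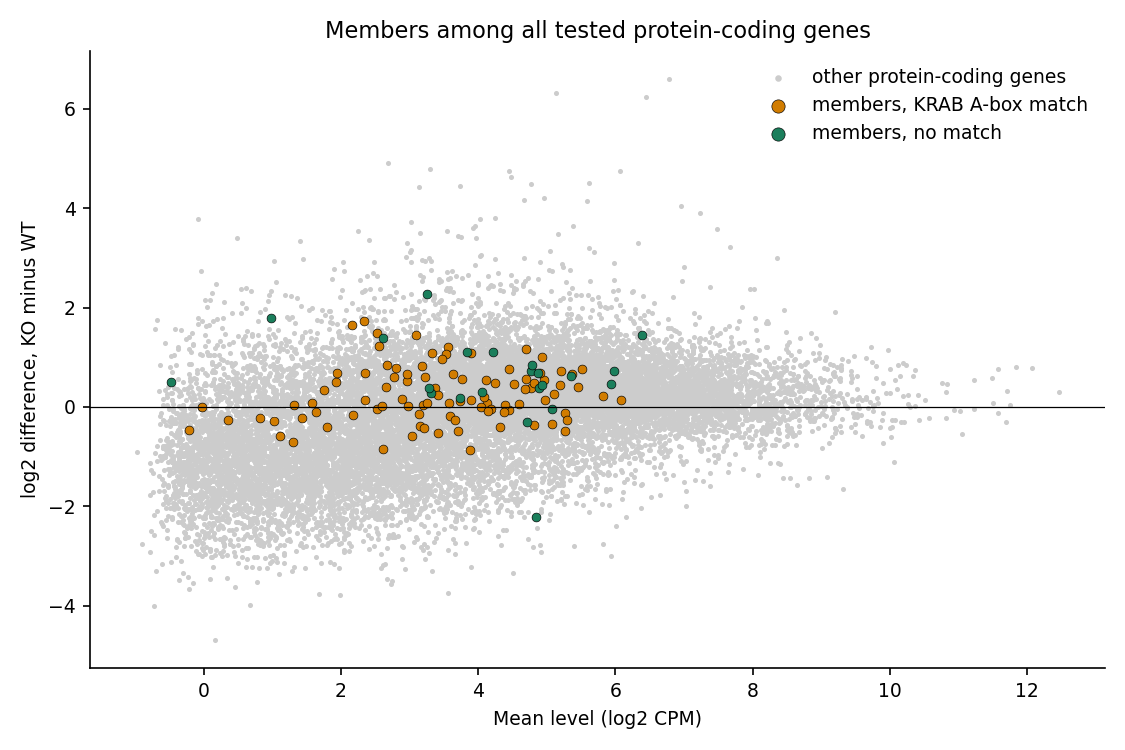
Log2 difference (libraries labelled KO minus those labelled WT) against mean level (log2 CPM). Coloured points are the 117 tested genes, split by the presence of a KRAB A-box; grey points are the other tested protein-coding genes. Between 2 and 4, 38 of 50 coloured points lie above 0, against 2011 of 4409 protein-coding genes. At 4 or more both lean above 0 (37 of 50 and 5443 of 8070). Under 2, 8 of 17 coloured points and 867 of 4089 protein-coding genes lie above 0.

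With TMM, large differences were mostly rises. When the log2 difference also had to reach 1 in size, 17 of the 117 genes were higher and 1 was lower, against 8.78% and 19.4% of all genes. Counts at this size under other scalings are not given. The libraries labelled KO were all above those labelled WT for 52 genes (23.2% of all genes) and all below for 10 (25.1% of all genes), and overlapped for 55.

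The largest differences in size, in Zfp750, Zfp831 and Zfp703, were in genes without a KRAB match. Zfp750 (ENSMUSG00000039238.6, chr11:121510978-121519333), whose human counterpart drives terminal differentiation of the epidermis, had 15.8, 23.4, 7.23 and 16.4 CPM in KO 1 to KO 4, and 3.53, 2.50, 3.80 and 3.11 CPM in WT 1 to WT 4. Its lowest library labelled KO was above its highest labelled WT, and the log2 difference was 2.28 (SE of 0.298, edgeR, Benjamini-Hochberg adjusted p = 4.55e-05). Zfp703 (ENSMUSG00000085795.8, chr8:26977325-26981461), a co-repressor whose human counterpart is amplified in breast cancer, had 3.25, 2.04, 1.62 and 4.76 CPM in KO 1 to KO 4, and 0.410, 1.57, 0.535 and 0.906 CPM in WT 1 to WT 4. The groups came close, at 1.62 and 1.57 CPM, and the log2 difference was 1.78 (SE of 0.454, edgeR, Benjamini-Hochberg adjusted p = 0.00506). Zfp710 (ENSMUSG00000048897.15, chr7:80024814-80094173), also without a match, ranked behind 4 KRAB genes in its log2 difference but was far more abundant, with 112, 165, 101 and 114 CPM in KO 1 to KO 4 and 42.6, 43.4, 44.7 and 49.6 CPM in WT 1 to WT 4. Every library labelled KO was far above every one labelled WT, and the log2 difference was 1.45 (SE of 0.144, edgeR, Benjamini-Hochberg adjusted p = 6.34e-06).

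The largest fall was in Zfp831. This gene (ENSMUSG00000050600.5, chr2:174643534-174710832), with 2 zinc fingers in its longest translation, had 10.5, 7.32, 14.3 and 8.35 CPM in KO 1 to KO 4, and 44.0, 74.2, 40.8 and 29.0 CPM in WT 1 to WT 4. Every library labelled KO was below every one labelled WT, with a log2 difference of -2.22 (SE of 0.272, edgeR, Benjamini-Hochberg adjusted p = 2.74e-05). Zfp831 was the only fall of 1 or more, and it shared no 48-base sequence with another gene.

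**Figure D2:**
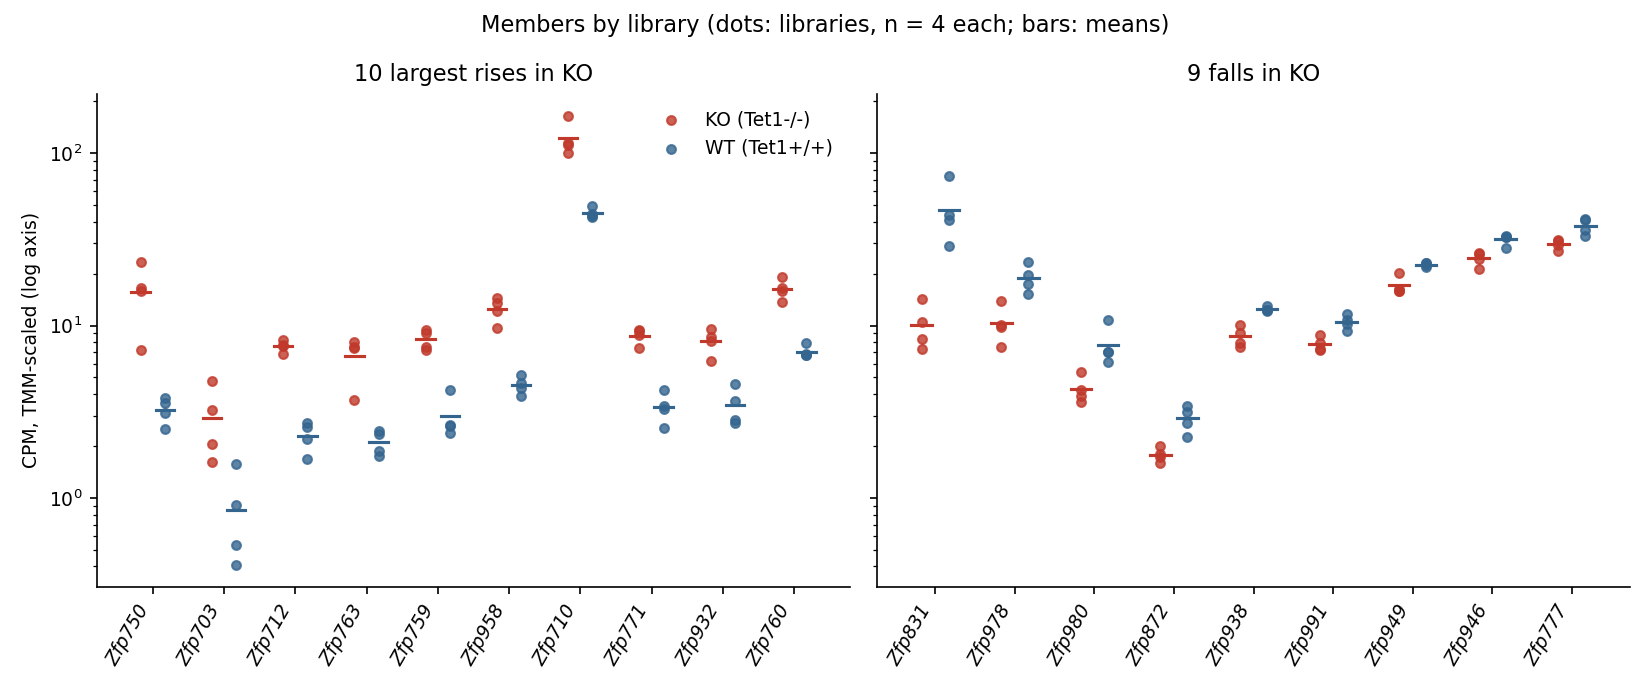
TMM-scaled CPM (log axis) of the 10 largest rises and the 9 falls whose groups did not overlap. Each dot is 1 library and each bar the mean of 4, with libraries labelled KO on the left of each pair. Zfp710 is the most abundant of the rises, and Zfp831 shows the widest gap among the falls.

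Several genes with known roles outside the KRAB group were higher. Zfp706, which represses Klf4 and promotes the exit of mouse embryonic stem cells from self-renewal, averaged 33.9 ± 5.09 CPM in libraries labelled KO and 20.4 ± 1.85 CPM in those labelled WT (SD, n = 4 each), a log2 difference of 0.73. Zfp830, needed for survival of the early mouse embryo, had 36.4, 36.6, 34.0 and 34.6 CPM in KO 1 to KO 4 and 20.9, 16.7, 18.2 and 22.8 CPM in WT 1 to WT 4, a log2 difference of 0.85. Per kilobase of exon its level was 22.3 CPM in libraries labelled KO, the highest of the 128 genes there, and 12.4 CPM in those labelled WT, where Zfp869 (14.9), Zfp978 (14.7) and Zfp981 (13.5) were above it. Zfp827, whose human counterpart recruits the NuRD co-repressor to telomeres, rose by 0.63, and Zfp768 rose by 1.10. Adjusted p was 0.000819 or lower for these 4 (edgeR, Benjamini-Hochberg). Zfp704 (0.46) and Zfp800 (0.43) also passed, but lost their call under 4 of the scalings below. Zfp711, an X-linked gene whose human counterpart is mutated in intellectual disability, had 21.9, 20.5, 27.01 and 23.5 CPM in KO 1 to KO 4, against 26.5, 35.8, 26.1 and 26.2 CPM in WT 1 to WT 4. The groups overlapped and it did not pass (log2 difference -0.30, edgeR, Benjamini-Hochberg adjusted p = 0.0881).

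A KRAB A-box was found in the translation of 104 of the 128 genes, by a match to at least 10 of 17 conserved residues; those with a match had 10 to 17 and those without had 2 to 7. The median number of C2H2 fingers was 11 with a match and 6 without. Of 95 tested genes with a match, 38 were higher and 10 lower, with a median log2 difference of 0.15 (-0.09 to 0.20 over the scalings given below). Of 22 without, 14 were higher and 1 lower (median 0.57). The difference between these classes was not tested. A chromosome 4 cluster held 16 of the genes with a match, and of the 79 outside it 37 were higher and 6 lower (median 0.35). The median was also low for the 18 tested genes with a match that lie outside every cluster. Of those 18, 5 were higher (27.8%, against 31.0% of protein-coding genes) and 1 lower (median 0.11). In the Zfp genes numbered below 700 the medians were 0.26 over 110 with a match and 0.36 over 122 without.

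Among KRAB genes named for a known role, Zfp809, Zfp932 and Zfp746 rose, Zfp777 fell, Zfp819 did not pass and Zfp708 could not be tested. Zfp809, which in mouse binds the primer binding site of Moloney murine leukaemia virus and recruits TRIM28, had 14.7, 11.1, 13.7 and 14.7 CPM in KO 1 to KO 4, against 6.97, 7.78, 5.35 and 5.37 CPM in WT 1 to WT 4. All libraries labelled KO were higher, by 1.09 on the log2 scale (SE of 0.181, edgeR, Benjamini-Hochberg adjusted p = 0.000274). Zfp932, which represses endogenous retroviruses in mouse embryonic stem cells, had 8.55, 8.17, 6.20 and 9.51 CPM in KO 1 to KO 4, against 3.64, 4.59, 2.73 and 2.85 CPM in WT 1 to WT 4. It was 1.23 higher (SE of 0.226, edgeR, Benjamini-Hochberg adjusted p = 0.000551), but 46.4% of its 48-base sequences also occur in other genes, most of all Gm15446, so its count is uncertain. Zfp746, known as PARIS, a substrate of parkin that represses PGC-1alpha, averaged 40.6 ± 5.46 CPM in libraries labelled KO and 20.2 ± 1.66 CPM in those labelled WT (SD, n = 4 each), 1.01 higher. Zfp819, which binds TRIM28 in mouse embryonic stem cells, had 18.02, 16.9, 18.8 and 17.48 CPM in KO 1 to KO 4, against 18.4, 13.5, 20.3 and 21.2 CPM in WT 1 to WT 4. The values of Zfp819 overlapped and the log2 difference was -0.04 (edgeR, Benjamini-Hochberg adjusted p = 0.826); its sign differed in 4 alternatives.

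A list of 19 genes tied to KRAB repression, none a Zfp gene of this range, was mostly higher too. Of these 14 rose (73.7%), 1 fell and 4 did not pass, with a median of 0.62. Besides co-repressor genes the list holds Zfp57 (0.21, did not pass) and Zfp445 (0.54, passed), which are Zfp genes numbered below 700. Of all genes 25.3% were higher, and of protein-coding genes at a mean log2 CPM of at least 4, where 18 of the 19 lie, 46.4% were. Under the other scalings 13 or 14 of the 19 were higher and 1 to 3 lower. Trim28 averaged 715 ± 96.8 CPM in libraries labelled KO and 356 ± 39.1 CPM in those labelled WT (SD, n = 4 each), 1.01 higher. Setdb1 averaged 299 ± 20.6 CPM in libraries labelled KO and 144 ± 20.2 CPM in those labelled WT (SD, n = 4 each), 1.05 higher. Uhrf1 (2.05), Cbx1 (1.79), Smarcad1 (1.39) and Hdac1 (1.07) were those with the smallest p-values, and Chd3 fell by 0.56. Adjusted p was 0.000261 or lower for these 7 genes (edgeR, Benjamini-Hochberg).

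By position, 91 of the 128 genes stood in 14 clusters, each of at least 3 genes with gaps of at most 1 Mb. Of 83 tested in clusters, 35 were higher and 10 lower (median 0.27). Of 34 tested outside clusters, 17 were higher and 1 lower (median 0.45). The 18 of these with a KRAB match had 5 higher and 1 lower (median 0.11).

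**Figure D3:**
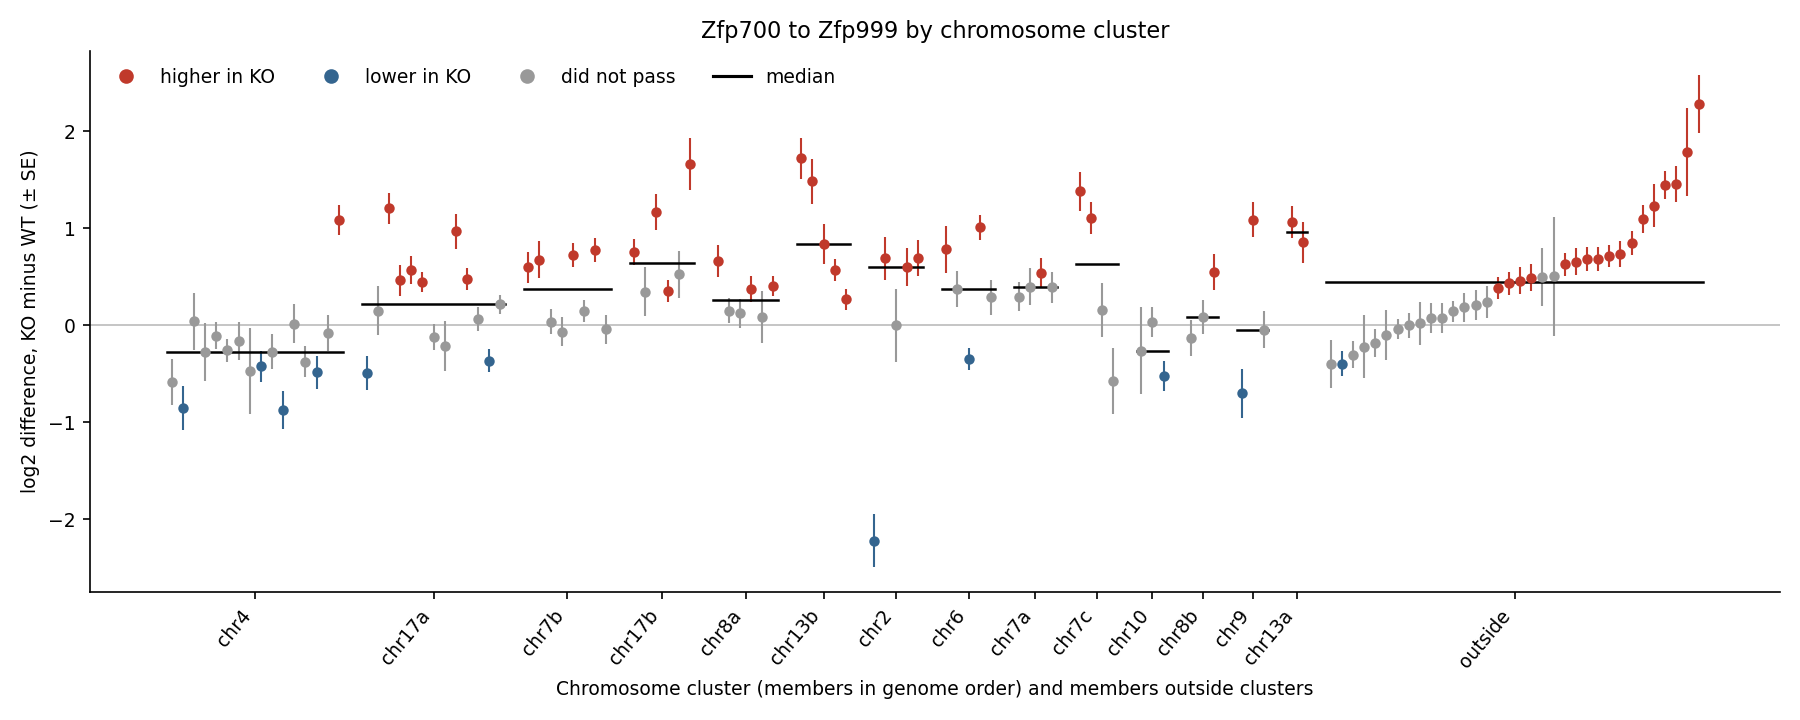
Log2 difference (libraries labelled KO minus those labelled WT) with its SE for each of the 117 tested genes, in genome order within 14 clusters and ordered by size outside them; letters number the clusters along a chromosome. Colour gives the call and black lines give medians, which run from -0.27 on chromosome 4 to 0.96 in the first cluster on chromosome 13.

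The 2 clusters on chromosome 13 held only rises among their tested genes. In the cluster at chr13:67038596-67687071, 5 of 5 tested genes were higher (4 of 5 under every scaling but TMM and RLE), with a median of 0.83. Zfp712 had 8.28, 7.72, 6.86 and 7.58 CPM in KO 1 to KO 4, against 2.71, 1.68, 2.58 and 2.20 CPM in WT 1 to WT 4. All libraries labelled KO were well above those labelled WT, and the log2 difference was 1.72 (SE of 0.212, edgeR, Benjamini-Hochberg adjusted p = 2.88e-05). Zfp759, in the same cluster, averaged 8.33 ± 1.10 CPM in libraries labelled KO and 2.98 ± 0.858 CPM in those labelled WT (SD, n = 4 each), 1.48 higher. Of 16 other coding genes tested in the same stretch, 2 were higher and 0 lower (median 0.16). In the cluster at chr13:62129886-62571199 both tested genes, Zfp808 and Zfp934, were higher. Zfp808 averaged 15.4 ± 1.51 CPM in libraries labelled KO and 7.41 ± 1.13 CPM in those labelled WT (SD, n = 4 each), 1.06 higher. Zfp808 shared 48.4% of its 48-base sequences with other genes, most of all Zfp934. Zfp934 shared 42.9%, most of all with Zfp808, so the counts of both are uncertain.

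Chromosome 17 had 2 clusters. In the cluster at chr17:32765496-33033402, 4 of 6 genes were higher and none lower, with a median of 0.64 and no sequence shared beyond 20%. Zfp763 had 7.55, 8.00, 3.69 and 7.39 CPM in KO 1 to KO 4, against 2.36, 1.74, 2.43 and 1.88 CPM in WT 1 to WT 4. KO 3 was well below the other libraries labelled KO but above all those labelled WT, and the log2 difference was 1.66 (SE of 0.269, edgeR, Benjamini-Hochberg adjusted p = 0.000222). Zfp799 was 1.17 higher. In the larger cluster at chr17:21567008-22867134, 6 of 13 were higher and 2 lower (median 0.22), against 2 higher and 3 lower with upper-quartile factors (median -0.02). Zfp760 averaged 16.3 ± 2.26 CPM in libraries labelled KO and 7.04 ± 0.595 CPM in those labelled WT (SD, n = 4 each), 1.21 higher. Towards the ends of the same cluster Zfp948 (-0.49) and Zfp946 (-0.36) fell; neither passed without KO 4.

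On chromosome 4 most differences were negative. The cluster at chr4:145510759-147848366 held 16 KRAB genes, and its deletion in mouse embryonic stem cells is known to release retrotransposons from silencing. Of these 16, 1 was higher (6.25%), 4 were lower (25%) and 11 did not pass. Of all genes 25.3% were higher and 28.2% lower, and of protein-coding genes 31% and 29.8%. With TMM the share lower was therefore not above that of all genes, while the share higher was below it. Of the 16 log2 differences 13 were negative, with a median of -0.27. Zfp978 had 7.55, 9.81, 13.9 and 10.1 CPM in KO 1 to KO 4, against 15.3, 23.4, 17.3 and 19.6 CPM in WT 1 to WT 4. Its groups did not overlap, and it fell by 0.87 on the log2 scale (SE of 0.196, edgeR, Benjamini-Hochberg adjusted p = 0.00234). Zfp980 had 3.91, 4.25, 5.39 and 3.60 CPM in KO 1 to KO 4, against 6.15, 10.7, 7.01 and 7.05 CPM in WT 1 to WT 4. It too was lower in every library labelled KO, and fell by 0.85 on the log2 scale (SE of 0.226, edgeR, Benjamini-Hochberg adjusted p = 0.00644). Zfp991 (-0.42) and Zfp979 (-0.48) passed as well. The groups of Zfp979 overlapped, at 28.3 to 38.3 CPM in libraries labelled KO and 34.1 to 61.5 CPM in those labelled WT.

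The genes around them in the cluster leaned the same way. The 5 other coding genes tested there had 0 higher, 3 lower and a median of -0.49. Among all 40 other tested genes of any type, these 5 included, 0 were higher and 16 lower, against 25.3% and 28.2% of all genes. The 5 include Zfp600 and Zfp534. Sequence shared by the 40 is not given here, so their counts may be uncertain too. At the end of the cluster Zfp933 had 19.9, 20.4, 18.1 and 22.0 CPM in KO 1 to KO 4, against 10.04, 8.48, 8.03 and 11.4 CPM in WT 1 to WT 4. Every library labelled KO was above every one labelled WT, by 1.08 on the log2 scale (SE of 0.153, edgeR, Benjamini-Hochberg adjusted p = 7.81e-05). Zfp933 shared 1.36% of its 48-base sequences with other genes, whereas 13 of the 16 genes shared 20% or more, among them the 4 that fell. Their counts, and the direction of the cluster, are uncertain for that reason. Genes sharing 20% or more outside this cluster had 6 higher and 0 lower of 18 tested, with a median of 0.03, and the 86 tested genes that shared less had 46 higher and 7 lower, with a median of 0.44. Without KO 1, KO 2, KO 4 or WT 2, left out one at a time, only Zfp978 and Zfp980 of the cluster passed as lower, and Zfp933 passed as higher.

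Of 11 genes of the cluster on chromosome 2 (chr2:174643534-178078476), 6 could not be tested. Beside Zfp831 at its edge, which shares no sequence with it and has no KRAB match, 3 of the 4 tested genes were higher, at 0.60 to 0.69. With upper-quartile or ribosomal protein scaling 0 of these were higher, and 1 with total counts. Zfp970 and Zfp971, which are among the 3, share 59.5% and 44.4% of their 48-base sequences with other genes, so their counts are uncertain. In the cluster on chromosome 9 neighbours moved in opposite directions. Zfp809 rose, as given above, while Zfp872 averaged 1.78 ± 0.169 CPM in libraries labelled KO and 2.89 ± 0.515 CPM in those labelled WT (SD, n = 4 each), -0.70 on the log2 scale. On chromosome 6, likewise, Zfp746 rose and its neighbour Zfp777 fell by 0.35 on the log2 scale, at 29.7 ± 1.80 CPM in libraries labelled KO and 37.8 ± 3.89 CPM in those labelled WT (SD, n = 4 each). Zfp872 and Zfp777 did not pass without KO 4.

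Among the smaller clusters, the 1 at chr7:127244274-127406822 had rises in Zfp771 (1.38 higher) and Zfp768, both without a KRAB match. Its other pair, which shares sequence, did not pass. Those on chromosome 7 at 41633203 to 43618285 and on chromosome 8 at 69209038 to 69791178 had 4 of 8 and 3 of 6 higher and none lower, led by Zfp719 (0.77) and Zfp930 (0.66). With upper-quartile or ribosomal protein scaling the 4 became 2, Zfp719 among them, and the 3 became 0. With total counts or loess 1 of the 3 on chromosome 8 was left. The 4 genes at chr7:6131491-7209998 all had positive differences, and Zfp773 (0.54) passed, but lost its call under upper-quartile, ribosomal protein and loess scaling (edgeR, Benjamini-Hochberg adjusted p of 0.0783 to 0.108). Of 3 genes at chr8:71882019-71993792 only Zfp961 (0.55) passed, and it lost its call under every scaling other than TMM and RLE. Of 3 on chromosome 10 none rose and Zfp938 fell, at 8.65 ± 1.16 CPM in libraries labelled KO and 12.4 ± 0.387 CPM in those labelled WT (SD, n = 4 each), a log2 difference of -0.53 that also passed without KO 4. Outside clusters Zfp958 was 1.45 higher and Zfp949 was -0.40, the 1 fall there, which did not pass without KO 4. Zfp865 was 1.10 higher, but 36.6% of its exon length overlaps other genes.

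The number called depended on how the libraries were scaled. TMM, RLE, upper-quartile, total-count and ribosomal protein scaling each give a library 1 factor for all genes, whereas cyclic loess corrects by level and can move genes in opposite directions. With TMM 52 genes were higher and 11 lower. Median-ratio (RLE) factors gave 53 and 11, and cyclic loess 42 and 14. Total counts gave 39 and 16, ribosomal protein genes (83 genes) as the yardstick 31 and 14, and upper-quartile factors 31 and 20. The median of the 117 genes was then 0.32, 0.25, 0.12, 0.14 and 0.06 in that order. Relative to TMM, the same scalings moved the median of all genes by 0.03, 0.06, -0.18, -0.17 and -0.24. In each of the 6 scalings more of these genes were higher than lower. Among protein-coding genes more were higher than lower with TMM (31.0% and 29.8%) and RLE (31.9% and 28.8%), and fewer with the other 4, down to 21.0% and 39.6% with upper-quartile factors.

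**Figure D4:**
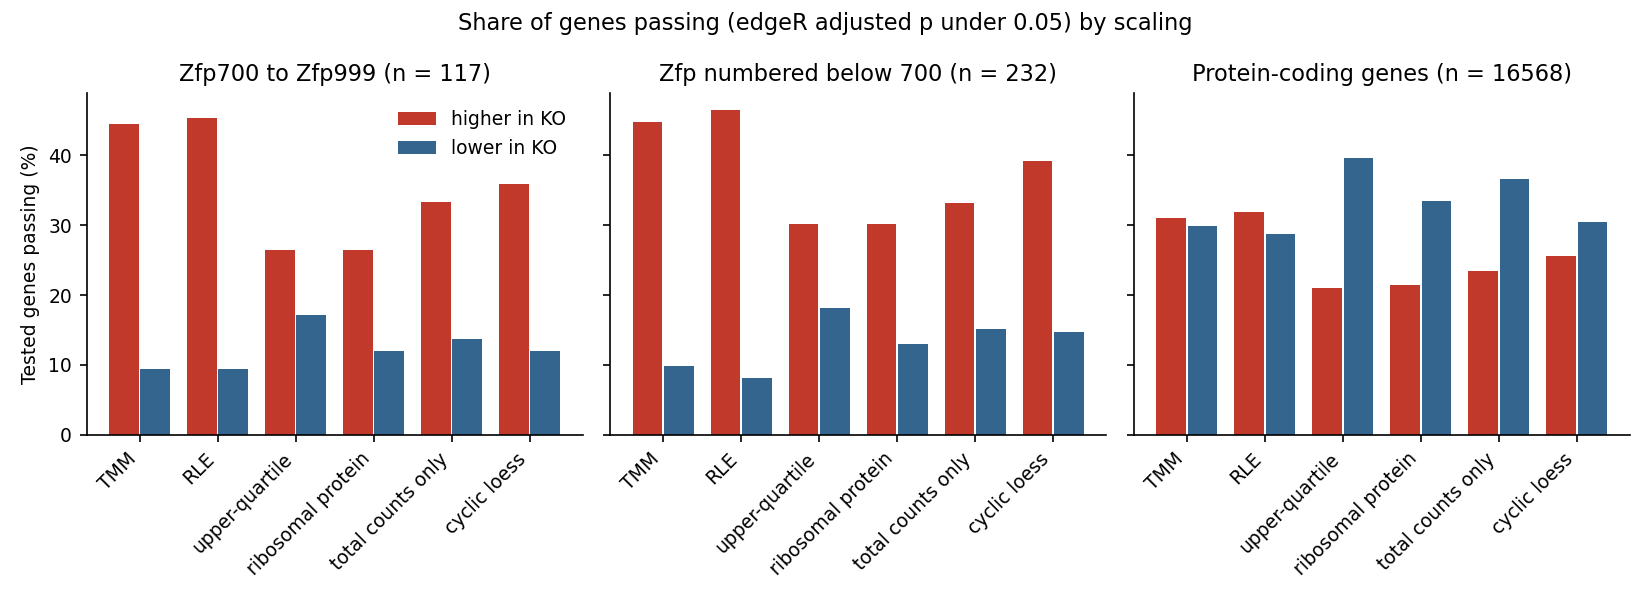
Share of tested genes (%) passing as higher or lower in libraries labelled KO, under 6 scalings of the libraries, for the 117 genes, for 232 Zfp genes numbered below 700 and for 16568 protein-coding genes. The red bar is above the blue one in all 6 scalings for both Zfp groups, and in 2 of 6 for protein-coding genes.

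Under all 6 scalings 31 genes were higher and 10 lower, and 0 were called in both directions. The 31 include the 10 largest rises, Zfp809, Zfp746, Zfp933, Zfp706, Zfp827, Zfp830 and Zfp768. The 10 are the 11 falls other than Zfp872. The sign of the median of the KRAB genes depended on the scaling. It was 0.15 with TMM, 0.17 with RLE and 0.20 with loess, but -0.09 with upper-quartile factors, -0.02 with ribosomal protein genes and -0.03 with total counts, with 20 higher and 17 lower of 95 under upper-quartile factors. For the 22 genes without a match the median stayed between 0.33 and 0.59. In the chromosome 4 cluster the number lower was 4 with TMM and RLE, 5 with loess, 7 with ribosomal protein genes and 8 with the other 2, and 1 gene, Zfp933, was higher in each. Some clusters had no fixed direction: the median changed sign for the larger cluster on chromosome 17, for the second on chromosome 8 and for those on chromosomes 9 and 10 in at least 1 scaling.

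Promoter CG content was described by domain class, with no test. A ratio of observed to expected CG of 0.6 or more was found in 15 of 17 windows of genes without a KRAB match and in 29 of 92 with one (31.5%), against 36.5% of 27025 RefSeq windows. CG itself, which reads the same on both strands, was in all 109 windows and in 94.2% of all RefSeq windows. Of 42 tested genes with a ratio of 0.6 or more, 22 were higher and 2 lower, with a median log2 difference of 0.44. Of 57 with a lower ratio, 22 were higher and 6 lower (median 0.15). The chromosome 4 cluster had a median of 4.5 CG dinucleotides per window, against 9 for all 109, and the windows printed above show its copies and Zfp933 beside them. Among its 10 windows, the 36 pairs without Zfp933 had a median identity of 80.8% (52.7% to 91.3%), and the 9 pairs with Zfp933 58.7% (57.3% to 60%). Zfp933 was not the only unlike window. Zfp993, which did not pass (log2 difference -0.16), was 52.7% to 55.7% identical to the windows other than that of Zfp933. The window of Zfp993 lies 98112 bases from its GENCODE 5′ end. Some other windows were far from that end too, such as those of Zfp935 (91699 bases), Zfp936 (63361), Zfp866 (16267) and Zfp981 (12893). Zfp981 is in the chromosome 4 cluster. Such windows were kept in the counts above. Methylation was not analysed here, and these windows are a description only.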

How the data were processed

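RNA sequencing libraries of 8 samples in 2 groups of 4 were compared. The authors deposited raw counts per gene, as whole numbers without normalization. Per the submitters' processing notes the build was mm10 and the tools included STAR, featureCounts 1.5.0, Trim Galore, DESeq2 and edgeR, in unstated roles. The sources used here give neither the strand setting nor whether molecular identifiers were collapsed, so overlapping genes and close copies can share or lose reads. Of 55401 identifiers, 260 had no GENCODE M21 entry.

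Counts were fitted with edgeR 4.0.16 in R 4.3.3 (filterByExpr, TMM, quasi-likelihood, genotype as the only term), and p-values were adjusted by Benjamini-Hochberg over 24005 genes. SE is the log2 difference divided by the root of F. Totals of 13820764 to 20115250 counts made 3 counts, the limit that a count of 0 allows, 0.146 to 0.221 CPM. This limit covers counting error only. The steps were tested on simulated data.

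The members, lists and tests were chosen with earlier results of these data known. Genes were named if among the 10 largest rises or 10 largest falls past the threshold without overlap (9 falls met this), lowest in p in a cluster, or of known role; others in the text were chosen after their values were seen. KRAB and finger features came from translating the longest GENCODE coding sequence, since no protein table was used here. Shared sequence is the share of a gene's 48-base stretches found in transcripts of other genes. Alternatives were 5 other scalings, DESeq2 1.42.0, limma 3.58.1 for cyclic loess, other filters, coding genes only, a fold threshold, other cluster gaps, a replicate block and leaving out each library.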

Additional observations from a re-analysis of the deposited data

Results flagged for a closer look

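In 72 groups of 4 libraries (the named genes, each genotype apart), 7 had 1 library farther from the others than Dixon's 95% limit, where chance flags about 1 in 20 groups. Among libraries labelled KO, Zfp763 was at 3.69 CPM in KO 3, with 7.39 to 8.00 CPM in the others. Zfp949 was at 20.3 CPM in KO 2, with 15.8 to 16.4 CPM in the others. Among libraries labelled WT, Zfp711 was at 35.8 CPM in WT 2, with 26.1 to 26.5 CPM in the others. Zfp759 was at 4.25 CPM in WT 1, with 2.39 to 2.65 CPM in the others. Zfp760 was at 7.93 CPM in WT 3, with 6.71 to 6.79 CPM in the others. Zfp938 was at 13.01 CPM in WT 4, with 12.2 to 12.3 CPM in the others. Zfp946 was at 28.2 CPM in WT 1, with 32.5 to 33.0 CPM in the others.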

How the results depend on the processing

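Of 52 rises, upper-quartile and ribosomal protein scaling each left 31, and a log2 threshold of 1 left 17; leaving out 1 library gave 49 to 53. The 11 falls became 20 with upper-quartile scaling, 4 with DESeq2, 4 without a low-count filter and 1 with the log2 threshold, and 4 to 12 when 1 library was left out. They numbered 4 without KO 1 (Zfp831, Zfp938, Zfp978 and Zfp980), 7 without KO 2, 4 without KO 4, 6 without WT 3 and 7 without WT 4. The median over the genes was 0.32 with RLE, 0.060 with upper-quartile, 0.14 with ribosomal protein, 0.12 with total-count and 0.25 with loess scaling, 0.36 with DESeq2, 0.34 without a filter, 0.25 with coding genes only, and 0.25 to 0.34 when 1 library was left out.

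Cluster medians moved as follows under upper-quartile, ribosomal protein and total-count scaling, in that order. They were 0.40, 0.47 and 0.47 for chr17:32765496-33033402, and -0.020, 0.050 and 0.040 for the larger cluster on chromosome 17. They were -0.51, -0.45 and -0.45 on chromosome 4, and 0.13, 0.18 and 0.20 on chromosome 6. On chromosome 7 they were 0.16, 0.21 and 0.21 in the first cluster, and 0.13, 0.21 and 0.19 in the second. On chromosome 8 they were 0.024, 0.087 and 0.081 in the first, and -0.15, -0.084 and -0.092 in the second. With upper-quartile scaling alone they also moved to 0.72 in the first cluster on chromosome 13, 0.36 on chromosome 2, 0.39 in the third on chromosome 7 and -0.28 on chromosome 9. With loess they were 0.028 on chromosome 10, 0.090 on chromosome 9, 0.19 in the second on chromosome 7 and 0.14 in the first on chromosome 8. With DESeq2 they were 0.28 in the larger cluster on chromosome 17, 0.33 in the first on chromosome 8 and 0.014 on chromosome 9. With a gap of 500 kb the medians were 0.58 on chromosome 6 and 0.14 in the second on chromosome 7, and with 2 Mb 0.32 on chromosome 9. Leaving out 1 library gave -0.51 to 0.10 on chromosome 10 and -0.13 to 0.090 on chromosome 9, both above 0 without KO 2. It gave 0.19 to 0.29 and 0.50 to 0.78 in the larger and the smaller cluster on chromosome 17, 0.30 to 0.53 on chromosome 6, and 0.25 to 0.36 and 0.0051 to 0.26 on chromosome 8. The cause of these changes was not tested; scalings other than loess move all genes of a library by 1 factor.

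For 36 named genes and 18 settings, 587 values kept direction and call, 53 lost the call, 4 gained it (Zfp711) and 4 changed sign. The 4 were of Zfp819: 0.018 with DESeq2, 0.017 without KO 2, 0.029 without WT 3 and 0.046 without WT 4 (-0.16 to 0.046 over the left-out libraries). Same-numbered libraries did not deviate together (correlations of 0.15, -0.21, -0.11 and 0.01), and no label says what the numbers mark, so the libraries were treated as unpaired. The library names of KO 1 and WT 1, the pair at 0.15, share a number whose meaning is not given. A replicate block gave 51 higher and 9 lower. Genes of few counts, such as Zfp703, are measured with less precision; of the 11 untested genes most also share sequence or exons with others.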
